A study of Arabidopsis thaliana with 24 samples.

Results

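Of the 350 mature sequences listed under names of known Arabidopsis miRNAs in each small RNA library, 128 belong to families with a number above 1000. These members were chosen by name alone: a row was taken when the number after miR exceeded 1000, and miR2111 was left out because that family is shared by many plant lineages. The members fall into 105 families, and 11 of the rows carry several names because identical mature sequences share a row. The remaining rows served for comparison, with 96 rows from conserved families and 126 other lower-numbered rows.

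The libraries were made from whole 2-week-old seedlings treated for 4 h with 100 µM ABA, dissolved in methanol, or with the matching mock. There were 8 groups of 3 biological replicates: abi1td ABA and abi1td mock, mkkk17 ABA and mkkk17 mock, mkkk18 ABA and mkkk18 mock, and WT ABA and WT mock, where WT is the Columbia ecotype Col-0. Each mutant is represented by T-DNA insertion plants of a single line, hit in the gene of the phosphatase ABI1, which holds ABA signalling back, or of the kinases MAPKKK17 and MAPKKK18, which act in a cascade switched on by the core ABA pathway. Small RNA libraries do not measure the mRNA of the disrupted genes, so the genotype labels could not be checked in them. In RNA from whole seedlings, fewer cells of a type and fewer miRNA molecules per cell cannot be told apart.

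Plant miRNAs are cut from hairpin precursors by the nuclease DICER-LIKE1 and loaded into ARGONAUTE1, where they guide the cleavage or repression of mRNAs that pair with nearly their whole length. miRBase numbers families in the order in which they were registered, so numbers above 1000 mostly mark sequences found late, by deep sequencing, and many of them are known from Arabidopsis and its near relatives alone. Young miRNA genes of this kind are known for low expression, for hairpins with arms that still match their founding locus, and for targets that in most cases are not established.

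The 6 members with a mean of at least 1 RPM, the deposited unit of reads scaled to a common total, over the 24 libraries are called well measured here, and their mature sequences are shown because most of the values given below are theirs. Capitals mark the seed, bases 2 to 8 counted from the 5′ end.
miR5651: uUGUGCGGuucaaauaguaac
miR5026: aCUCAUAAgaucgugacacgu
miR1886.2: uGAGAUGAaaucuuugauugg
miR5663-3p: uGAGAAUGcaaauccuuagcu
miR5654-5p: aUAAAUCCcaacaucuucca
miR8175: gAUCCCCGgcaacggcgcca
None of these 6 shared its seed with another of them. Among all 350 rows, only the seed of miR1886.2 recurred, in miR774b-5p, a lower-numbered miRNA. Over the 128 members, 4 shared a seed with another member and 3 with a row outside the list.

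All 128 members matched the TAIR10.1 genome without a mismatch, and each lay at an annotated miRNA gene. A single matching position was found for 92 members, between 2 and 5 positions for 25, and more than 5 for 11, up to 15 for miR5643a. Protein-coding genes overlapped the matches of 67 members, against 11 of the 96 conserved and 40 of the 126 other lower-numbered rows.

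miR5651 matched once, at chr3:17178489-17178509 on the plus strand, within MIR5651 and outside any protein-coding gene. miR5026 matched at chr4:7844612-7844632 on the plus strand, where MIR5026 lies within the non-coding RNA gene AT4G13495, and again at chr5:14318730-14318750 on the minus strand, where no gene is annotated. miR1886.2 matched at chr2:15611882-15611902 on the plus strand, in an exon of AT2G37160, which encodes a Transducin/WD40 repeat-like protein. The same exon holds miR1886.1 at chr2:15611873-15611893, which overlaps miR1886.2, and miR1886.3 at chr2:15611953-15611973 on the other side of the hairpin.

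miR5663-3p matched at chr1:18686859-18686879 on the minus strand and at chr1:18686942-18686962 on the plus strand, both in an intron of AT1G50440. miR5663-5p matched the same positions on the opposite strands, so that each position of this inverted repeat holds both mature sequences. A read of either sequence therefore cannot be given to a genomic position or strand. miR5654-5p lay at chr1:11786294-11786313 on the plus strand in an exon of AT1G32583, with miR5654-3p at chr1:11786348-11786370. miR8175 matched at chr2:3740938-3740957 within MIR8175 and at chr3:16161749-16161768, antisense to an exon of AT3G44580.

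The sequence of miR8175 ends in cca, the triplet that is added to tRNAs after transcription. Its first 17 bases were identical to the 3′ end of 22 of the 672 annotated tRNA genes, all of them annotated as tRNA-Asp, the carrier of aspartate. A read of a mature tRNA-Asp 3′ end and a read of miR8175 therefore have the same letters, and the deposited values do not tell them apart.

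In base composition the members were AU-rich. Their median GC content was 38.1% (range 19.0 to 76.2%), compared with 50.0% in the conserved and 40.0% in the other lower-numbered rows. A 5′ adenine was present in 50 members (39.1%), compared with 13.5% of the conserved and 16.7% of the other rows, and a 5′ uracil, the base that ARGONAUTE1 prefers, in 60 members (46.9%), compared with 51.0% and 69.8%. Most members were 21 nt long (99 of 128), 11 had 20 nt, 11 had 22 nt, 4 had 24 nt, 2 had 23 nt, and 1 had 19 nt.

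As a description of possible targets, annotated mRNAs were searched for stretches complementary to each mature sequence over its full length with at most 2 mismatches, G:U pairs counting as mismatches. Such a stretch was present for 38 members (29.7%), near the 31.4% of all 350 rows. For miR5654-5p it lay in the coding sequence of AT1G52770, an NPH3 family protein, at chr1:19657364-19657383 with 2 mismatches, shown here with the pairing letters in capitals.
AT1G52770 stretch: TGGAAGAaGTTGGGATTTAg
For miR1886.2 the only such stretch was in the AT2G37160 transcript itself, on the opposite side of its own hairpin, and for miR8175 it was the antisense match in AT3G44580. No stretch with at most 2 mismatches was present for miR5651, miR5026, and miR5663-3p in these transcripts. A complementary stretch is a match of letters and no evidence of cleavage.

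Few members were measured well. Above 0 RPM in at least 1 library were 90 of 128 members (70.3%), against 93 of 96 conserved (96.9%) and 93 of 126 other lower-numbered rows (73.8%). The other 38 members, among them every row of 32 families, were listed at 0 in all 24 libraries. One read was worth an estimated 0.0778 to 0.180 RPM, so the level of 3 reads, which a value of 0 still allows, was 0.233 to 0.541 RPM. In 49 members the highest value of any library corresponded to at most 3 reads, and 13 members were above 0 in 1 library only. In all 24 libraries 7 members were above 0. The median of the mean levels was 0.025 RPM for the members, 10.5 RPM for the conserved rows, and 0.177 RPM for the other rows.

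**Figure D1:**
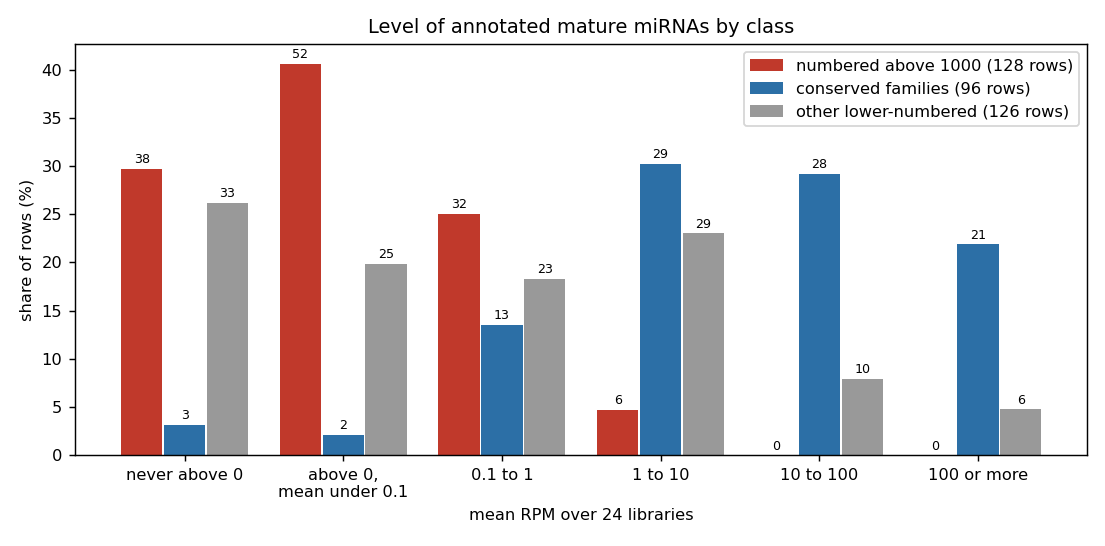
Share of rows (%) in each class of mean level over the 24 libraries, in RPM, for the 128 members numbered above 1000 (red), the 96 rows of conserved families (blue), and the 126 other lower-numbered rows (grey). The number above each bar counts the rows: 38 members were never above 0, 52 stayed under 0.1 RPM on average, 32 lay between 0.1 and 1 RPM, 6 between 1 and 10 RPM, and 0 above.

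The members together took from 0.0282 to 0.112% of the summed RPM of a library, and between 19 and 51 of them were above 0 in any 1 library. Within a genotype, 56 members were above 0 in abi1td ABA and 59 in abi1td mock seedlings, 67 in mkkk17 ABA and 55 in mkkk17 mock, 56 in mkkk18 ABA and 62 in mkkk18 mock, and 41 in WT ABA and 62 in WT mock. Depth differed between these libraries: 1 read was worth 0.0893 to 0.180 RPM in the WT ABA libraries and 0.103 to 0.109 RPM in the WT mock libraries, and its part in the counts was not tested. In abi1td ABA replicate 2, 24 members were above 0, compared with 37 and 39 in the other abi1td ABA libraries, and results that rest on it are given below with and without it. Low counts also occurred in other groups. They were 22 in mkkk17 mock replicate 1, against 31 and 49, and 27 in mkkk18 ABA replicate 1, against 39 and 44.

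The 6 well measured members held 69.2% of all RPM assigned to the 128. Their means over the 24 libraries were 8.16 RPM for miR5651, 5.96 RPM for miR5026, 4.95 RPM for miR1886.2, 2.01 RPM for miR5663-3p, 1.85 RPM for miR5654-5p, and 1.40 RPM for miR8175. Even the highest of them, miR5651, ranked 68 among the 350 rows. Just under the limit of 1 RPM were miR3932b-5p with 0.94 RPM and the row shared by miR5998a and miR5998b with 0.82 RPM, followed by miR5012 with 0.59 RPM and miR3440b-5p with 0.52 RPM.

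In the hairpins of miR1886, miR5654, and miR5663, 1 product had a higher mean than the others. miR1886.2 averaged 4.95 RPM, compared with 0.175 RPM for miR1886.1, which overlaps it, and 0.117 RPM for miR1886.3. MIR5654 gave 1.85 RPM of miR5654-5p and 0.404 RPM of miR5654-3p, and MIR5663 gave 2.01 RPM of miR5663-3p and 0.242 RPM of miR5663-5p.

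The first comparison asked which miRNAs respond to ABA in WT. Of the 6 members with a mean of at least 1 RPM in the WT libraries, 4 were downregulated after ABA and none was upregulated. They were miR1886.2, miR5651, miR5663-3p, and miR5026. Over all 125 rows tested in WT, 75 passed the test (60.0%), of which 42 were lower (33.6%) and 33 higher (26.4%), so a call in WT was common. The median log2 fold change was −1.31 over the 6 members and −0.10 over all rows tested.

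miR1886.2 had 0.4, 0.8, and 1.3 RPM in WT ABA seedlings, against 5.5, 6.9, and 7.0 RPM in WT mock seedlings. miR5651 had 3.3, 3.5, and 1.6 RPM in WT ABA, against 8.9, 12.0, and 16.6 RPM in WT mock. For both, every ABA library lay below every mock library. miR5663-3p had 0.4, 0.2, and 0.4 RPM in WT ABA, against 1.6, 3.0, and 2.9 RPM in WT mock, and its ABA values corresponded to only 4.48, 1.31, and 2.22 estimated reads. miR5026 had 1.9, 2.0, and 1.8 RPM in WT ABA, against 7.0, 6.0, and 7.1 RPM in WT mock. Again the groups did not overlap.

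For the test, RPM were divided by median-of-ratios factors, and log2(scaled RPM + 0.5) was compared. The mean log2 factor of the WT ABA libraries minus that of the WT mock libraries was −0.51, so the rescaling raised the ABA values relative to mock. On the rescaled values miR1886.2 averaged 0.94 ± 0.36 in WT ABA and 5.39 ± 0.37 in WT mock (SD, n = 3 each). The log2 fold change was −2.06 ± 0.33 (SE) for miR1886.2, −1.52 ± 0.36 for miR5651, −1.49 ± 0.37 for miR5663-3p, and −1.14 ± 0.32 for miR5026. The limma adjusted p-values, by Benjamini-Hochberg over the 125 rows, were 8.8e-05, 0.0022, 0.0030, and 0.0066 in the same order. All 4 stayed called when each of the 6 libraries was left out in turn. On the rescaled values the 3 ABA libraries lay below the 3 mock libraries for these 4 of the 6 members, as they did for 36.8% of all rows tested.

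miR8175 had 0.6, 1.1, and 2.9 RPM in WT ABA seedlings, against 3.7, 1.9, and 1.6 RPM in WT mock seedlings, and was not called. Its groups overlapped. miR3932b-5p, which reached a mean of 1 RPM in WT, was not called either, with 0.4, 1.8, and 0.5 RPM in WT ABA and 0.5, 1.0, and 1.9 RPM in WT mock. miR5654-5p stayed under the limit for testing in WT, with 1.1, 0.3, and 0.9 RPM in WT ABA and 0.4, 2.1, and 0.8 RPM in WT mock.

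**Figure D2:**
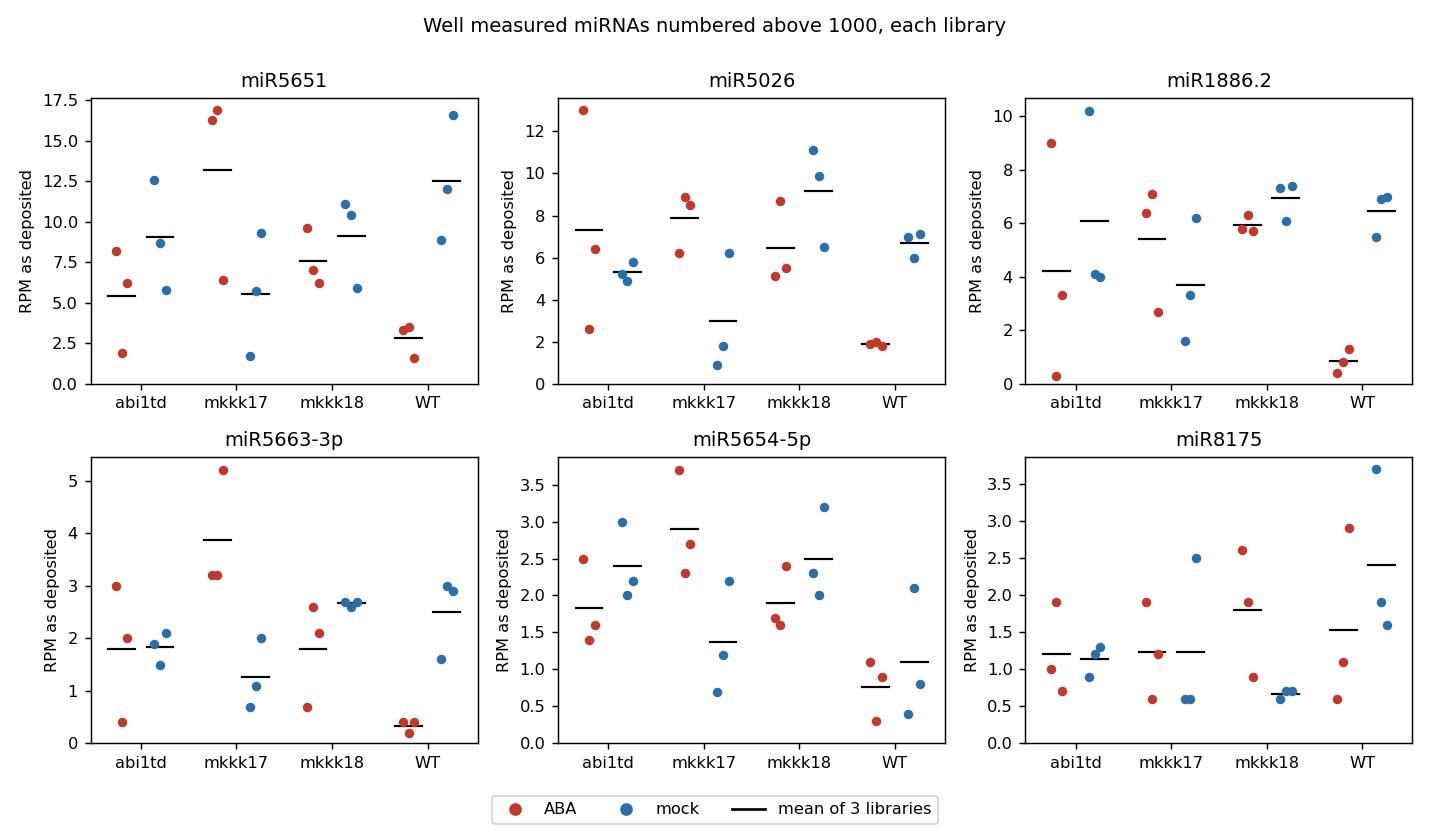
RPM as deposited (y axis, from 0) of the 6 well measured members in every library, with ABA (red) left of mock (blue) in abi1td, mkkk17, mkkk18, and WT. Points are libraries and black lines are means of 3. In WT the ABA points of miR5651, miR5026, miR1886.2, and miR5663-3p all lie below the mock points, while those of miR8175 and miR5654-5p overlap.

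Base composition moved with these changes. Across the 125 rows tested in WT, the log2 fold change correlated with the GC content of the mature sequence (Pearson r = 0.64 over rows of the same 6 libraries, given as a description). The 4 called members had a GC content between 33.3 and 42.9%. Of the 41 other rows in this range 22 were called lower and 3 higher in WT, with a median log2 fold change of −0.81, whereas of the 70 rows above it 8 were called lower and 30 higher, with a median of 0.52. After a linear GC correction of each library, none of the 4 was called, and their log2 fold changes were −0.64 for miR1886.2, −0.58 for miR5026, −0.53 for miR5651, and −0.50 for miR5663-3p. All 4 remained below 0. With the correction 54 of 125 rows were called (43.2%), of which 44 were also called without it and 10 were not. The only member called in WT with the correction was miR8175 (−2.60), with 75.0% GC. No other row tested exceeded 66.7% GC, so its corrected value rests on a line extended past the other rows.

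**Figure D3:**
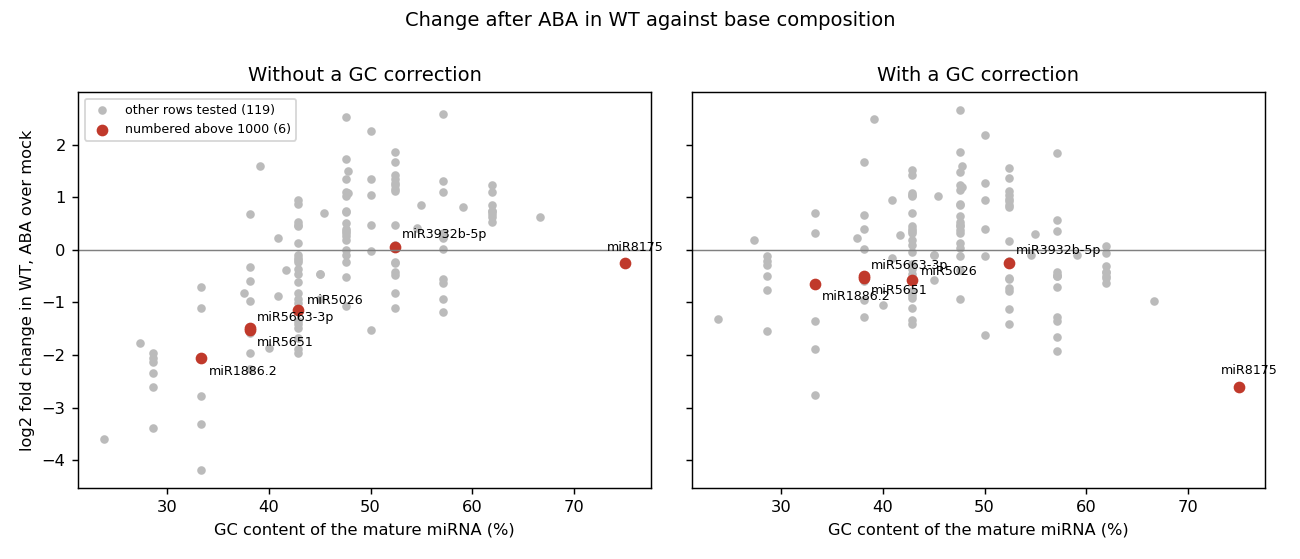
Log2 fold change in WT, ABA over mock (y axis), against the GC content of the mature miRNA in % (x axis), without (left) and with (right) a linear GC correction; red points are the 6 members tested and grey points the 119 other rows. Without the correction the 4 called members lie between −2.06 and −1.14 among other rows of low GC, and with it they lie between −0.64 and −0.50.

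In the mutants, no member was called after ABA by limma with Benjamini-Hochberg adjustment. Of the 6 members tested in abi1td none was called and none had an unadjusted p under 0.05, where 2 of 129 rows were called (1.55%) and 15 had an unadjusted p under 0.05. In mkkk17, 0 of 7 members were called and 1 had an unadjusted p under 0.05, where 4 of 129 rows were called (3.1%) and 18 had such a p. In mkkk18, 0 of 7 members were called and 1 had an unadjusted p under 0.05, where 4 of 133 rows were called (3.01%) and 25 had such a p.

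In abi1td, miR5651 had 8.2, 1.9, and 6.2 RPM after ABA, against 12.6, 8.7, and 5.8 RPM after mock. miR5026 had 13.0, 2.6, and 6.4 RPM in abi1td ABA, against 5.2, 4.9, and 5.8 RPM in abi1td mock. miR1886.2 had 9.0, 0.3, and 3.3 RPM in abi1td ABA, against 10.2, 4.1, and 4.0 RPM in abi1td mock. On RPM as deposited the ABA replicate 2 library was in each case the lowest of the 6, near the WT ABA levels. The groups overlapped. On values rescaled over the 24 libraries, miR5026 had 4.00 there, against 4.13 in abi1td mock replicate 1 and 1.87 to 3.10 in WT ABA. For miR5663-3p, too, the ABA replicate 2 library was the lowest as deposited. It had 3.0, 0.4, and 2.0 RPM in abi1td ABA, against 1.9, 1.5, and 2.1 RPM in abi1td mock. miR8175, in contrast, was highest in ABA replicate 2, with 1.0, 1.9, and 0.7 RPM in abi1td ABA, against 0.9, 1.2, and 1.3 RPM in abi1td mock. miR5654-5p had 2.5, 1.4, and 1.6 RPM in abi1td ABA, against 3.0, 2.0, and 2.2 RPM in abi1td mock. Of the 6 members tested in abi1td, it was the only 1 whose rescaled ABA values all lay below the mock values, as did 17.1% of the rows tested. Without ABA replicate 2, no member was called in abi1td either.

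In mkkk17, the mean deposited value was higher after ABA for 58 of the 90 members ever above 0, and for 214 of all 276 rows ever above 0. miR5651 had 16.3, 16.9, and 6.4 RPM in mkkk17 ABA, against 1.7, 5.7, and 9.3 RPM in mkkk17 mock. miR5026 had 6.2, 8.9, and 8.5 RPM in mkkk17 ABA, against 0.9, 1.8, and 6.2 RPM in mkkk17 mock. miR5663-3p had 3.2, 3.2, and 5.2 RPM in mkkk17 ABA, against 0.7, 1.1, and 2.0 RPM in mkkk17 mock. For miR5663-3p the groups did not overlap on the deposited values, a separation that was not counted over all rows. On the rescaled values its groups overlapped, with 1.9, 1.7, and 3.8 in mkkk17 ABA, against 1.9, 2.0, and 1.8 in mkkk17 mock. For miR5026 the highest mock library equalled the lowest ABA library. The whole table moved with them: the median-of-ratios factors of the mkkk17 ABA libraries exceeded those of the mock libraries by 1.40 on the log2 scale. On RPM as deposited miR5026 and miR5663-3p were called higher, with log2 fold changes of 1.57 and 1.34, where 63 of 129 rows were called (48.8%). On the rescaled values neither was called.

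The other well measured members in mkkk17 showed no call on either scale. miR1886.2 had 6.4, 7.1, and 2.7 RPM in mkkk17 ABA, against 1.6, 3.3, and 6.2 RPM in mkkk17 mock. On the rescaled values its 3 ABA libraries lay below the 3 mock libraries, as for 8.53% of the rows tested, at 3.21 ± 1.09 in mkkk17 ABA and 5.25 ± 0.91 in mkkk17 mock (SD, n = 3 each). miR5654-5p had 3.7, 2.3, and 2.7 RPM in mkkk17 ABA, against 0.7, 1.2, and 2.2 RPM in mkkk17 mock. miR8175 had 1.9, 0.6, and 1.2 RPM in mkkk17 ABA, against 0.6, 0.6, and 2.5 RPM in mkkk17 mock. Its log2 fold change was −0.76 ± 0.34 on the rescaled values (limma, unadjusted p = 0.040, Benjamini-Hochberg adjusted p = 0.31) and 0.10 on RPM as deposited, so the direction depended on the scaling.

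In mkkk18, miR5651 had 9.6, 7.0, and 6.2 RPM after ABA, against 11.1, 10.4, and 5.9 RPM after mock. miR5026 had 5.1, 8.7, and 5.5 RPM in mkkk18 ABA, against 11.1, 9.9, and 6.5 RPM in mkkk18 mock. miR1886.2 had 5.8, 6.3, and 5.7 RPM in mkkk18 ABA, against 7.3, 6.1, and 7.4 RPM in mkkk18 mock. None of these was separated by treatment. miR5663-3p had 0.7, 2.6, and 2.1 RPM in mkkk18 ABA, against 2.7, 2.6, and 2.7 RPM in mkkk18 mock. miR5654-5p had 1.7, 1.6, and 2.4 RPM in mkkk18 ABA, against 2.3, 2.0, and 3.2 RPM in mkkk18 mock. Of the 7 members tested in mkkk18, only miR8175 had its ABA libraries all above mock. Its values were 2.6, 1.9, and 0.9 RPM in mkkk18 ABA, against 0.6, 0.7, and 0.7 RPM in mkkk18 mock. Such a separation was seen for 14.3% of the rows tested in mkkk18. The log2 fold change of miR8175 was 1.03 ± 0.34 (limma, unadjusted p = 0.0095, Benjamini-Hochberg adjusted p = 0.14), and 0.23 with the GC correction (adjusted p = 0.93).

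**Figure D4:**
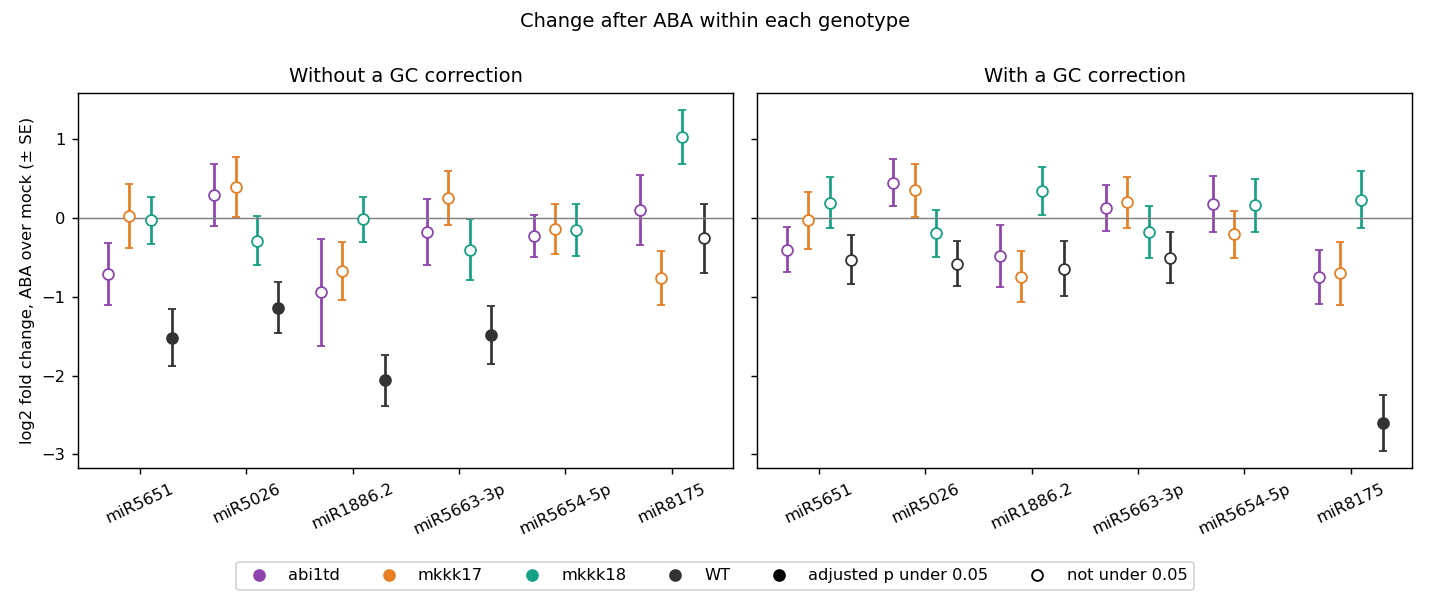
Log2 fold change, ABA over mock, with SE (y axis), of the well measured members in abi1td (purple), mkkk17 (orange), mkkk18 (green), and WT (black), without (left) and with (right) a linear GC correction; filled points have a limma adjusted p under 0.05. Without the correction 4 WT points are filled, and with it the only filled point is miR8175 in WT at −2.60; miR5654-5p was not tested in WT.

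A call in WT without a call in a mutant is no difference between them, so the ABA responses were compared directly in a fit of all 24 libraries. The 3 comparisons of a mutant response with the WT response share the WT libraries. In mkkk17, 3 of 6 members were called for a response higher than that of WT, where 44 of 129 rows were called (34.1%), 26 of them higher (20.2%). The differences in log2 fold change were 1.71 ± 0.52 (SE) for miR5663-3p, 1.46 ± 0.48 for miR5026, and 1.47 ± 0.56 for miR5651, with limma adjusted p-values (Benjamini-Hochberg) of 0.014, 0.021, and 0.044. On RPM as deposited these differences were 3.16, 3.15, and 3.30 in the same order, and miR1886.2 was called as well with 2.99 (limma adjusted p = 0.0026), where 78 of 129 rows were called (60.5%). Without the filter on low values miR5651 was not called (adjusted p = 0.092). The call of miR5663-3p held with each of the 12 libraries left out. miR5026 lost it without WT mock replicate 1 (adjusted p = 0.058), WT ABA replicate 3 (0.058), mkkk17 mock replicate 1 (0.086), or mkkk17 ABA replicate 3 (0.052). miR5651 lost it in 7 of 12 cases, without WT mock replicate 1 (0.058), 2 (0.052), or 3 (0.088), WT ABA replicate 3 (0.15), mkkk17 mock replicate 1 (0.15), or mkkk17 ABA replicate 1 (0.11) or 2 (0.097).

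In mkkk18, 1 of 6 members was called for a response higher than that of WT, where 17 of 129 rows were called (13.2%), 13 of them higher (10.1%). This was miR1886.2, with a difference of 2.00 ± 0.65 (limma, Benjamini-Hochberg adjusted p = 0.040). The call was borderline: it held only without mkkk18 ABA replicate 1 (adjusted p = 0.043) and was lost without any of the 11 other libraries, with adjusted p-values from 0.053 without WT ABA replicate 3 to 0.091 without mkkk18 mock replicate 2. It was also lost on RPM as deposited (2.23, adjusted p = 0.098), with a pseudocount of 0.1 (adjusted p = 0.051), and without the filter on low values (adjusted p = 0.11). miR5651 differed by 1.42 ± 0.56 (unadjusted p = 0.018, limma adjusted p = 0.081). It was called without WT ABA replicate 1 (adjusted p = 0.045), where 31 of 129 rows were called. miR5663-3p was called without mkkk18 ABA replicate 1 (1.50, adjusted p = 0.038), where 26 of 129 rows were called.

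In abi1td, 0 of 6 members were called for a response different from WT by limma, where 2 of 129 rows were called (1.55%), and 2 members and 28 rows had an unadjusted p under 0.05. miR5026 differed by 1.36 ± 0.48 (unadjusted p = 0.0092, adjusted p = 0.14, Benjamini-Hochberg) and miR5663-3p by 1.27 ± 0.52 (unadjusted p = 0.023, adjusted p = 0.16). Without abi1td ABA replicate 2 the picture changed, and 27 of 130 rows were called. Then 3 members were called higher than in WT, miR1886.2 with 1.94 (limma adjusted p = 0.0039), miR5026 with 1.73 (0.011), and miR5663-3p with 1.75 (0.014).

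GC content moved with these differences too. Over the 129 rows the difference from the WT response correlated with GC at r = −0.61 in abi1td, −0.65 in mkkk17, and −0.52 in mkkk18, given as descriptions over rows. With the GC correction none of the 4 calls was kept, and the differences were 0.99 for miR5026, 0.80 for miR5663-3p, and 0.57 for miR5651 in mkkk17, and 1.09 for miR1886.2 in mkkk18. All 4 differences stayed above 0. Members called with the correction were miR8175 (1.92) and miR5654-5p (−1.49) in mkkk17, where 31 of 129 rows were called (24%), and miR8175 (2.76) in mkkk18, where 20 of 129 rows were called (15.5%). Without the correction these differences were −0.57, −0.30, and 1.18 in the same order, and none was called. The sign of miR8175 in mkkk17 thus reversed. As in WT, the corrected values of miR8175 rest on a line extended past the other rows. Among the differences that missed the threshold without the correction, that of miR5651 in mkkk18 was 0.79 with it, that of miR5026 in abi1td 1.09, and that of miR5663-3p in abi1td 0.74.

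Between the untreated genotypes no member was called. By limma with Benjamini-Hochberg adjustment, 0 of 6 members were called in abi1td mock, mkkk17 mock, or mkkk18 mock against WT mock, where 1 (0.775%), 1 (0.775%), and 0 (0.0%) of 129 rows were called. Members with an unadjusted p under 0.05 numbered 1, 1, and 2, and rows 11, 24, and 23. The most repeated of these was miR5654-5p, with the mutant values given above against 0.4, 2.1, and 0.8 RPM in WT mock. Its log2 fold change against WT mock was 1.21 ± 0.35 in abi1td (unadjusted p = 0.0017, adjusted p = 0.11), 1.02 ± 0.35 in mkkk17 (0.0067, adjusted 0.12), and 0.91 ± 0.35 in mkkk18 (0.014, adjusted 0.15). In mkkk17 it was 0.29 on RPM as deposited. The 3 comparisons share the WT mock libraries. On the rescaled values WT mock replicate 2 was the highest of these, at 1.58. It lay above the lowest mkkk18 mock value (1.57) but below the lowest abi1td mock (2.39) and mkkk17 mock (1.96) values. Without WT mock replicate 2 the difference was called in abi1td (1.54, limma adjusted p = 0.019) and mkkk17 (1.36, adjusted p = 0.044). With other libraries left out, the limma adjusted p rose to as much as 0.85 in abi1td and 0.34 in mkkk17. In mkkk18 it stayed between 0.075 and 0.62.

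miR8175 had 0.6, 0.7, and 0.7 RPM in mkkk18 mock, against 3.7, 1.9, and 1.6 RPM in WT mock, and the groups did not overlap. How many of all rows were separated in this way between these mock groups was not counted. The log2 fold change was −1.28 ± 0.43 (limma, unadjusted p = 0.0066, Benjamini-Hochberg adjusted p = 0.15) and did not pass the test.

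The 122 members under 1 RPM were too low to be compared singly in most cases. The row of miR5998a and miR5998b was listed at 0 in all 3 WT ABA libraries, against 0.3, 0.8, and 2.0 RPM in WT mock, while 3 reads were worth 0.268 to 0.541 RPM in the ABA libraries. It was also at 0 in abi1td ABA replicate 2, with 0.4, 0.0, and 0.6 RPM in abi1td ABA, against 1.9, 1.0, and 0.6 RPM in abi1td mock. In WT, 6 members were above 0 in all 3 mock libraries and in no ABA library (miR5998a, miR5650, miR1888a, miR2112-3p, miR5632-5p, and miR5997), and 0 showed the opposite. The 6 are 4.69% of the 128 members, and 14 of all 350 rows (4.0%) had this pattern. Among them miR5650 had 0.3, 0.4, and 0.2 RPM and miR1888a 0.3, 0.4, and 0.5 RPM in WT mock. Many of these values are near 3 reads and were not distinguishable from 0 at this depth.

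The deposited RPM were also summed over the 122 low members. The sum was 7.03 ± 2.17 RPM in WT ABA and 11.9 ± 3.21 RPM in WT mock (SD, n = 3 each). In mkkk17 it went the other way, with 16.8 ± 4.45 RPM in ABA and 6.47 ± 4.44 RPM in mock. It was 8.87 ± 4.46 RPM in abi1td ABA and 10.3 ± 3.18 RPM in abi1td mock. In mkkk18 ABA it was 11.4 ± 0.25 RPM, against 13.9 ± 1.33 RPM in mkkk18 mock. These sums were not rescaled or tested. By the direction of the group means on rescaled values, 23 of the 90 members ever above 0 were higher and 44 lower in WT ABA than in WT mock (48.9% lower), the same share as among all 276 rows above 0 (48.9%). In mkkk17, 45 were higher and 30 lower after ABA (33.3% lower), against 44.6% lower among all rows. On RPM as deposited the share lower was 53.3% of members and 58.0% of all rows in WT, and 14.4% of members and 9.78% of all rows in mkkk17, so in mkkk17 the members' share lay below that of all rows on the rescaled values and above it on the deposited values.

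The sum over all 128 members was lowest in WT ABA, with 13.1, 17.4, and 15.1 RPM, against 35.5, 44.5, and 50.7 RPM in WT mock. It was 50.2, 13.1, and 28.7 RPM in abi1td ABA, against 47.8, 30.8, and 29.8 RPM in abi1td mock. In abi1td the groups overlapped, and ABA replicate 2 equalled the lowest WT ABA library. The sum was 50.5, 60.6, and 42.7 RPM in mkkk17 ABA, against 9.3, 18.5, and 39.9 RPM in mkkk17 mock. It was 37.2, 39.5, and 34.0 RPM in mkkk18 ABA, against 49.9, 44.1, and 41.0 RPM in mkkk18 mock.

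Rescaling the sums by the median of ratios over the 24 libraries left the mkkk17 ABA libraries within the range of the mkkk17 mock libraries and the WT ABA libraries below WT mock. The rescaled sum was 32.4 ± 1.34 in mkkk17 ABA and 33.4 ± 6.37 in mkkk17 mock, 32.5 ± 1.70 in mkkk18 ABA and 35.2 ± 0.97 in mkkk18 mock, and 31.3 ± 10.3 in abi1td ABA and 37.5 ± 4.83 in abi1td mock (SD, n = 3 each). In WT it was 19.4 ± 3.22 in ABA and 37.3 ± 3.29 in mock seedlings (SD, n = 3 each). The 3 WT ABA libraries lay below the 3 WT mock libraries on both scales. The WT sums include the 4 members called in WT. On the same rescaled values miR5651 averaged 3.76 in WT ABA and 10.6 in WT mock, and miR1886.2 0.99 and 5.55. For miR5026 the means were 2.46 and 5.90, and for miR5663-3p 0.44 and 2.09. The difference in the sums is therefore not a measure of the other members, and the sums were not GC-corrected. No test was run on these sums.

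**Figure D5:**
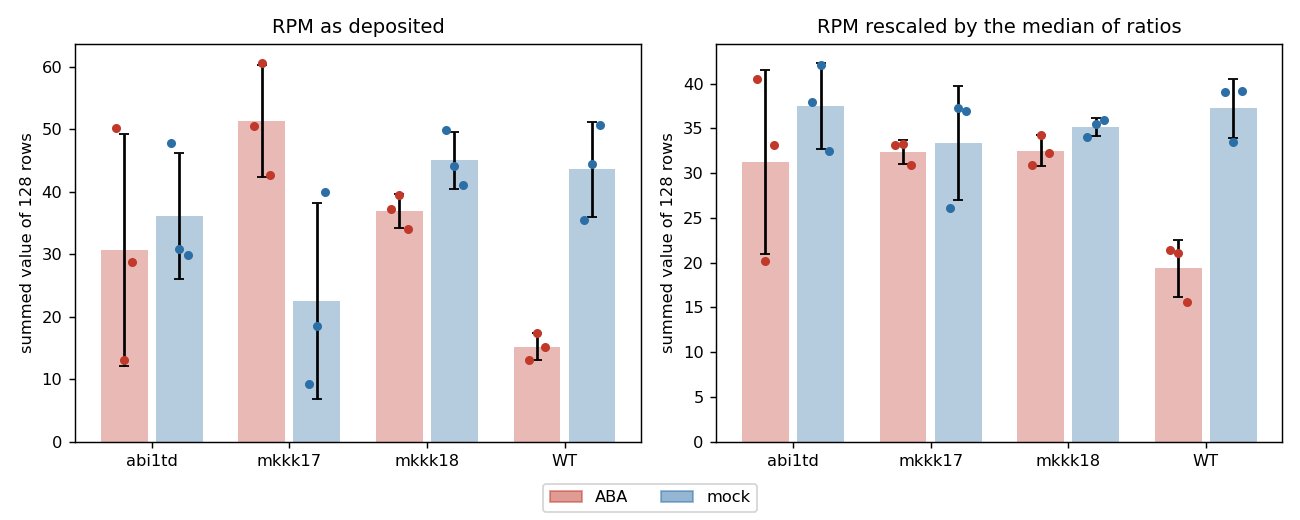
Sum over the 128 members in each library, as deposited RPM (left) and as RPM rescaled by the median of ratios (right), with ABA (red) left of mock (blue) in each genotype; bars are means of 3 libraries, error bars are SD, and points are libraries. The mkkk17 ABA libraries lie above the mkkk17 mock libraries on the left and within their range on the right, while the WT ABA libraries lie below WT mock in both.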

How the data were processed

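The authors sequenced small RNA of 24 libraries (TruSeq small RNA kit, HiSeq2500), clipped adapters, dropped short and low-quality reads, and catalogued the reads against miRBase with mirPRo. The deposited values are RPM, reads scaled to a common library total, with 1 decimal and with replicates kept apart. Which total, and which genome build, is not given in the sources used here. Each library has its own table, and its group came from the labels.

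Libraries were brought to a common scale with median-of-ratios factors, taken over rows above 0 throughout the libraries being compared. The limma package (3.58.1, under R 4.3.3) was then run on log2(scaled RPM + 0.5), with moderated variances that follow a trend and with Benjamini-Hochberg adjustment over all rows tested, members or not. Testing required a mean of 1 RPM or more in the libraries compared, and the threshold on the adjusted p-value was 0.05. On this scale a fold change understates the change of low rows. Each ABA and mock pair used the 6 libraries of its genotype; differences between responses and between mock groups used all 24. The GC correction took from each library its own straight line on GC percentage.

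Deposited values are multiples of the worth of 1 read. A unique step (tolerance 0.05 RPM) was found in 9 libraries, and elsewhere the worth of a read was estimated from the library totals. Since no comparison had the step in all of its libraries, no count test was run. Estimated reads cover counting error only.

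Every library is printed for members averaging 1 RPM or more. Fold changes with errors are printed for those members where called or where the unadjusted p was under 0.05. Other rows named were chosen after their values were seen. Members, lists, and tests were chosen with earlier results of these data known. The fit was tested on simulated data. Sequences were matched to TAIR10.1 and to 31464 mRNAs, 1 per locus, with Python 3.11.15, numpy 2.4.6, pandas 2.3.3, and numba 0.67.0, and figures were drawn with matplotlib 3.10.9.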

Additional observations from a re-analysis of the deposited data

Results flagged for a closer look

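The ABA response of 4 member and genotype pairs differed from that of WT by the test of the difference itself. In mkkk17 the log2 response exceeded that of WT by 1.71 for miR5663-3p, by 1.46 for miR5026, and by 1.47 for miR5651, and in mkkk18 it exceeded that of WT by 2.00 for miR1886.2 (limma with Benjamini-Hochberg adjustment). In the separate fits of 6 libraries per genotype, the WT response was below 0 in each of the 4 cases. The mutant responses in those fits lay between −0.01 for miR1886.2 in mkkk18 and 0.39 for miR5026 in mkkk17. The differences come from the fit of all 24 libraries, with other scale factors, so the values do not add up exactly. The 4 differences were 0.80, 0.99, 0.57, and 1.09 with the GC correction, in the same order, and none was then called. Groups of 3 libraries were not tested for a library apart from the others by Dixon's ratio.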

How the results depend on the processing

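The 4 WT calls had the same direction under all alternatives in which they were tested. The number of members called after ABA in WT was 10 without a filter on low values (83 of 240 rows). It was 1 at a minimum mean of 5 RPM, where fewer rows were tested (51 of 75 rows called). It was also 1 with the GC correction, alone (54 of 125 rows) or with the replicate block (49 of 125 rows). With each library left out it was 4 to 4. In mkkk17 it was 2 on RPM as deposited, where the log2 change of miR8175 was 0.10 and so reversed. With a library left out it was 0 to 0 in each mutant. For a response different from WT, the count in mkkk17 was 4 on RPM as deposited (78 of 129 rows). It was 6 without the filter (45 of 276 rows), and 1 to 3 with a library left out. In mkkk18 it was 0 on RPM as deposited, with a pseudocount of 0.1, or at a minimum mean of 5 RPM. With a library left out it was 0 to 2 in mkkk18, where 0 to 31 rows were called. In abi1td it was 0 to 3, where 0 to 27 rows were called. Against WT mock it was 1 in mkkk17 on RPM as deposited (41 of 129 rows), and 0 to 1 in abi1td, 0 to 1 in mkkk17, and 0 to 0 in mkkk18 with a library left out. The cause of these changes was not tested. Over the alternatives other than left-out libraries, the adjusted p (limma) ran from 1.0e-07 to 0.20 for miR1886.2, from 2.3e-06 to 0.24 for miR5651, from 0.00059 to 0.32 for miR5663-3p, and from 0.00035 to 0.17 for miR5026 in WT.

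Same-numbered mock and ABA libraries deviated together with a mean correlation of −0.18 in WT, −0.07 in abi1td, −0.16 in mkkk17, and 0.16 in mkkk18, so the numbers were not taken as pairs; with the replicate block 4 members were called after ABA in WT, 3 for a different response in mkkk17, and 1 in mkkk18, as without it.

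Members detected numbered 47 when 3 reads in a library were required, and 61 when 2 libraries of a group had to be above 0. Members well measured numbered 2 at a minimum mean of 5 RPM and 1 with at least 1 RPM in all 24 libraries. The ABA minus mock difference of the summed RPM in WT, −28.4, became −18.7 without miR5651 and −17.9 after rescaling, and −32.4 to −24.8 with a library left out. In mkkk17 it was 28.7, −1.01 after rescaling, and 22.1 to 37.4 with a library left out, and in mkkk18 −8.10, −2.66, and −10.1 to −5.65. In abi1td it was −5.47, and with a library left out −15.2 to 3.32, being 3.32 without ABA replicate 2 and 0.37 without mock replicate 1.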

Other observations

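With low rows tested as well, the WT fit held 5 members above 0 in ABA only, 26 in mock only, and 36 in both. Of all 240 rows 83 were called, and of these members 10 were called after ABA (limma with Benjamini-Hochberg adjustment). Of these, 9 were lower after ABA, and the 1 that was higher was the row of the 6 identical miR8167 names (miR8167a), with 0.4, 0.5, and 0.9 RPM in WT ABA, against 0.2, 0.1, and 0.2 RPM in WT mock. Both arms of MIR2112 were among the lower ones: miR2112-5p had 0.1, 0.0, and 0.0 RPM in WT ABA, against 0.2, 0.4, and 0.6 RPM in WT mock, and miR2112-3p was listed at 0 in the 3 WT ABA libraries, against 0.1, 0.5, and 0.5 RPM in WT mock. Most of these values correspond to a few reads, and no explanation was tested.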
